A study of Mus musculus with 18 samples.

Results

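The 10 haematopoietic cytokine and growth factor receptors described here are Epor, Kit, Flt3, Csf2rb, Csf2ra, Il3ra, Csf3r, Igf1r, Insr and Il6st. They were chosen by gene symbol, each matched 1 row of the deposited table of 54232 genes, and all 10 passed the filter on low counts. The assay was 4sU-seq of nascent RNA: cells build the uridine analogue 4-thiouridine (4sU) into RNA as it is made, and the labelled RNA is then purified and sequenced. The cells came from livers of C57BL/6 mouse embryos (e12.5-e13.5). After sorting they had 6 h of rest in culture medium with serum, for which the study lists no added cytokine. Then followed 45 min in 500 µM 4sU, with no other treatment and no genetic change in any group.

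The 18 libraries hold 3 replicates of each of 6 populations. S0-Low cells lacked lineage markers and Ter119 (a marker of maturing red cells), had little or no CD71 (the transferrin receptor; the labels give it both as low and as negative) and, as the study describes them, hold stem and early progenitor cells with burst-forming erythroid progenitors. S0-Medium, S1, S2 and S3 cells were also lineage-negative. S0-Medium cells had medium CD71 without Ter119, S1 cells had high CD71 without Ter119, S2 cells had high CD71 with medium Ter119 and S3 cells had high levels of both. Lin+ cells carried markers of other blood lineages. The sort therefore used protein levels of CD71 and Ter119, neither of which is a receptor described here, and a gate can hold more than 1 cell type. In bulk libraries such as these, fewer cells of a type and less RNA per cell cannot be told apart.

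Blood progenitors survive, divide and choose a lineage under the control of these receptors. The erythropoietin receptor (Epor), the G-CSF receptor (Csf3r) and the receptors of IL-3 and GM-CSF have no kinase of their own and signal through JAK kinases bound to their tails, whereas Kit, Flt3, Igf1r and Insr are receptor tyrosine kinases. In red cell formation, Kit and its ligand stem cell factor act in progenitors, and erythropoietin acting on Epor is required from the late colony-forming stage on. Csf2rb encodes the beta chain shared by the receptors of IL-3, IL-5 and GM-CSF, Il3ra and Csf2ra encode the ligand-binding alpha chains for IL-3 and GM-CSF, and Il6st encodes gp130, shared by the IL-6 family.

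The bases just upstream of the start of 4 genes are shown first, since their nascent RNA took different courses through the same 5 populations: Epor and Csf2rb2, which had more counts in S3 than in S2, and Kit and Flt3, which were near 0 in S3. Csf2rb2 is the neighbour of Csf2rb and encodes a second beta chain, used for IL-3 only. Each line gives the 250 bases before the annotated start, read 5′ to 3′ on the strand of the gene, from RefSeq on GRCm38.p6. Capitals mark matches on either strand to GATAA (read by GATA factors), CCNCNCCC (the CACC box read by KLF factors), GAGGAA (read by ETS factors such as PU.1), TTCNNNGAA (read by STAT factors) and TGTGGT (read by RUNX factors), and neighbouring matches can overlap.
Epor, chr9:21963577-21963826, minus strand: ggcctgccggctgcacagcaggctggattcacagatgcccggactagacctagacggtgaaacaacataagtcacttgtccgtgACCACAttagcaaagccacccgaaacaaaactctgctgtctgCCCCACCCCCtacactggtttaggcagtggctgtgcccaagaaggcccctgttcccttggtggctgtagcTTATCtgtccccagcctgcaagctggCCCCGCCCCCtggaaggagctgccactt
Csf2rb2, chr15:78305722-78305971, minus strand: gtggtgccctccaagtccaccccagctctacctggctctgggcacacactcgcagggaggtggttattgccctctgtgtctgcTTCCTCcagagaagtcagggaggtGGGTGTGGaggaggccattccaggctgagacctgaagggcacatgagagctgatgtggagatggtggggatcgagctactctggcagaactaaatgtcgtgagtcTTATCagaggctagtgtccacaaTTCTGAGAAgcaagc
Kit, chr5:75574737-75574986, plus strand: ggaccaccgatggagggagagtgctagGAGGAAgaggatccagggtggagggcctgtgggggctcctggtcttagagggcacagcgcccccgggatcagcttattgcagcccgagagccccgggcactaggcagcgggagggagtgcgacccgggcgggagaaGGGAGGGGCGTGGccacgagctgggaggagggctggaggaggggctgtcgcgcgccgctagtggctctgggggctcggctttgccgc
Flt3, chr5:147400490-147400739, minus strand: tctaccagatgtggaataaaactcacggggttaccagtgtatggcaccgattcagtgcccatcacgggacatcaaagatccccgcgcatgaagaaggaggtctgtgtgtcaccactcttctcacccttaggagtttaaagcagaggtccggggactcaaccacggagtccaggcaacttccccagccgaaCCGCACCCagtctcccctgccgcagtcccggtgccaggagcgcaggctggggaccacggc

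Of the 10 receptors, 8 had such a window. GATAA was found in 1 of the 8, Epor, on the strand opposite to the gene, so that the printed line reads TTATC, beginning 54 bases before the start. The window of Csf2rb2 also held it on the opposite strand, with TTATC beginning 38 bases before the start. Among all 32851 windows, 22.6% held GATAA. The CACC box was found in 7 of the 8 against 45.9% of all windows, GAGGAA in 3 of the 8 (Kit, Csf2ra and Csf3r) against 23.3%, and TGTGGT in 1 of the 8 (Epor) against 14.0%. TTCNNNGAA was in none of the 8 and in 7.02% of all windows, and Csf2rb2 held 1 match 15 bases before its start. These matches describe letters only and say nothing of binding.

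The total count per library ranged from 9452476 (S0-Low replicate 3) to 40567976. Values below are normalized counts, which are counts scaled by TMM factors to the mean effective library size, and 3 counts correspond to between 1.99 and 7.97 normalized counts. The TMM factors were 0.579 to 0.735 in the S3 libraries and 0.862 to 1.27 in all others, so fold changes of S3 depend on this scaling. Over 12933 genes, replicate 3 was the library least like the other two in 4 of 6 populations (Pearson r of log2(CPM + 0.5) with the others 0.834 and 0.844 in S0-Low, against 0.966 between replicates 1 and 2), and values with replicates 1 and 2 alone, an alternative chosen after seeing the data, stand beside the calls that this changes. The study calls its replicates biological, and the sources do not say whether they came from separate litters. The summed level of 8 erythroid markers was 17962 to 43113 in S0-Low and 840554 to 1473859 in S3, but 9107 to 10634 in Lin+. The labels call all cells erythroblasts, whereas in Lin+ the summed level of 9 neutrophil markers was 108718 to 193307, and the Lin+ libraries are therefore described as cells of other lineages.

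The nascent RNA of some receptors differed between the erythroid populations, as did that of many other genes. Over the 5 erythroid populations 6 of the 10 receptors varied (Epor, Kit, Flt3, Csf2rb, Il3ra and Csf3r) in the quasi-likelihood test of edgeR, at a Benjamini-Hochberg adjusted p below 0.05. Of the 16555 genes tested and adjusted over, 24.6% passed. Adjusted p was lowest for Csf3r (3.4e-05), followed by Flt3 (0.000208), Kit (0.000684), Epor (0.0029), Csf2rb (0.00509) and Il3ra (0.0226). Csf2ra (0.466), Insr (0.533), Igf1r (0.701) and Il6st (0.75) did not pass. Without S0-Low replicate 3, and with replicates 1 and 2 alone, Il3ra no longer passed and the other 5 receptors did.

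**Figure D1:**
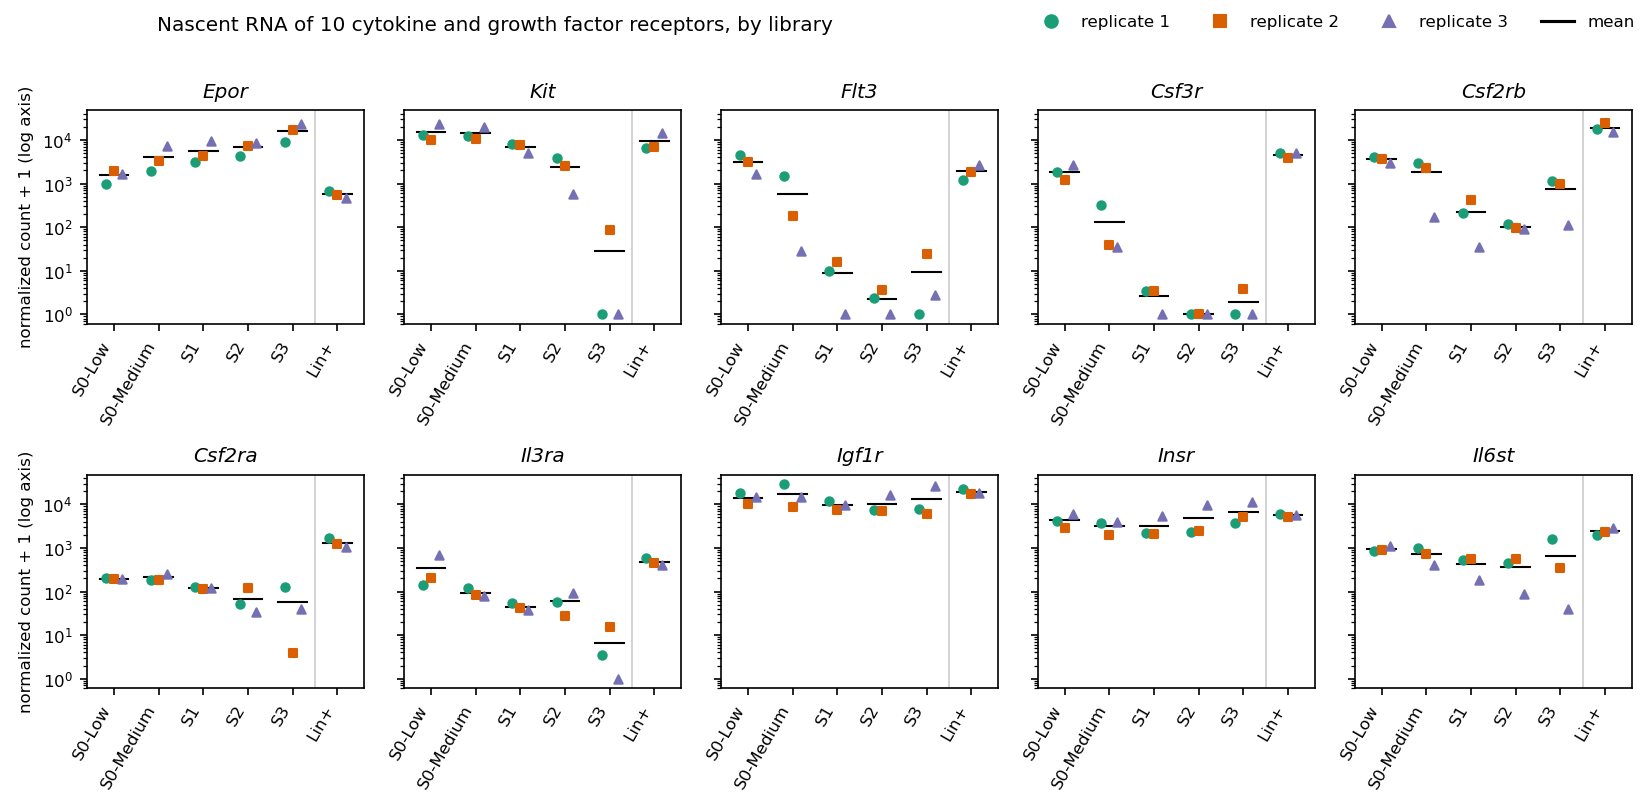
Normalized count + 1 (log axis) of each of the 10 receptors in each of the 18 libraries, with a point per replicate and a line at the mean of each population, and Lin+ to the right of the grey line. Epor has its highest mean in S3, Kit is between 565 and 3971 in S2 and at 0 in 2 of 3 S3 libraries, and Igf1r and Insr overlap between S0-Low and S3.

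No gene of the 16555 passed in any of the 3 early steps (0% called), and hence none of the receptors, so the stepwise course is given as values. At an unadjusted p under 0.05, edgeR gave 1 receptor higher (Epor) and 1 lower (Csf3r) in S0-Medium than in S0-Low, where 1.78% of all genes were higher and 1.47% lower. At the same threshold 3 receptors were lower (Flt3, Csf2rb and Csf3r) and 0 higher in S1 than in S0-Medium, where 5.18% of all genes were lower and 1.68% higher, and 0 differed in S2 against S1 (1.00% higher, 3.03% lower). DESeq2 called 1 receptor lower (Csf3r) at the first step, where it called 0.121% of all genes lower and 0.178% higher. It called 3 lower (the same 3) at the second, with 2.55% lower and 0.229% higher, and 0 at the third, with 0.984% lower and 0.0416% higher. In the last step, S3 against S2, edgeR called 1 receptor lower (Kit, 6.09% of all genes were called lower) and 0 higher (3.26% of all genes). DESeq2 there called Csf2rb higher (2.94, adjusted p = 0.0111) and Kit and Il3ra (-3.22, adjusted p = 0.00537) lower. It called 21.7% of all genes in either direction. In edgeR the whole course, S3 against S0-Low, gave 1 receptor higher (Epor) where 13.4% of all genes were higher. It gave 4 lower (Kit, Flt3, Il3ra and Csf3r) where 22.4% of all genes were lower. For S3 against S0-Low, the median log2 fold change was -2.05 over the 10 receptors and -0.54 over all genes tested, and the changes below are to be read against the latter.

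Epor lies at chr9:21958897-21963576. Its normalized counts were 994, 1931 and 1703 in S0-Low (replicates 1, 2 and 3), 1904, 3226 and 7336 in S0-Medium, 3083, 4315 and 9727 in S1, 4399, 7394 and 8521 in S2, and 8862, 17174 and 23029 in S3. Every S3 library was above every S2 library, S0-Medium, S1 and S2 overlapped, and S1 replicate 3 (9727) was the only library outside S3 to exceed the lowest S3 library (8862). Between same-numbered libraries, Epor was higher in 3 of 3 pairs from S0-Low to S0-Medium, in 3 of 3 from S0-Medium to S1, in 2 of 3 from S1 to S2 and in 3 of 3 from S2 to S3. In S3 the mean was 16355 ± 7119 (SD, n = 3) against 1543 ± 489 in S0-Low, a log2 fold change of 3.41 ± 0.57 (SE, adjusted p = 0.000407 in edgeR). Over 16 alternative settings this log2 fold change was 2.50 to 3.69. S3 was higher in 3 of 3 same-numbered pairs. In S3 against S2 the log2 fold change of Epor was 1.28 ± 0.53 and did not pass (adjusted p = 0.137), and with the replicate number as a block it was 1.22 and passed (adjusted p = 0.00518 in edgeR). Lin+ libraries held 472 to 690 normalized counts of Epor, below all S0-Low libraries, at a log2 fold change of -1.44 ± 0.51 that did not pass (adjusted p = 0.266 in edgeR).

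Kit, the receptor of stem cell factor, lies at chr5:75574987-75656722. Its normalized counts were 13157, 10272 and 23331 in S0-Low, then 12606, 10766 and 19682 in S0-Medium, 8037, 7706 and 5127 in S1, 3971, 2588 and 565 in S2, and 0, 83.6 and 0 in S3. S0-Low and S0-Medium overlapped, whereas S1, S2 and S3 each lay wholly below the population before. Kit fell by 6.30 on the log2 scale in S3 against S2 (SE 1.14, adjusted p = 0.00369 in edgeR), although in a fit of only the 6 libraries compared it did not pass (-6.46, adjusted p = 0.115). Kit fell by 9.02 on the log2 scale in S3 against S0-Low (SE 1.27, adjusted p = 0.000101 in edgeR). These sizes turn on S3 replicate 2, which held all 58 Kit counts of S3. In the other two S3 libraries Kit was at 0, which is at least 2439-fold lower than in S0-Low with the floor set at 3 counts per library.

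Flt3, the receptor of FLT3 ligand and a marker of early lymphoid and myeloid progenitors, lies at chr5:147330741-147400489, on the same chromosome as Kit. Its normalized counts were 4621, 3169 and 1634 in S0-Low, then 1511, 178 and 27.2 in S0-Medium, at most 15.0 in S1, at most 2.56 in S2 and at most 23.1 in S3. All S0-Medium libraries were below all S0-Low libraries, and S1 lay below S0-Medium without overlap. Flt3 fell by 8.43 on the log2 scale in S3 against S0-Low (SE 1.68, adjusted p = 0.00139 in edgeR). Over 15 alternative settings the log2 fold change was -11.41 to -7.93, and S3 replicate 2 held 16 of the 17 Flt3 counts of S3. Kit and Flt3 thus differed in where their levels were lost: in S1 Kit still had 5127 to 8037 normalized counts, when Flt3 had 0 to 15.0.

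Csf3r, the receptor of the neutrophil growth factor G-CSF, lies at chr4:126023441-126044975. Its normalized counts were 1823, 1193 and 2606 in S0-Low and then 322, 38.8 and 34.7 in S0-Medium. Only 3, 3 and 0 raw counts were left in S1, 0 in all S2 libraries, and 0, 2 and 0 in S3. The level in S2 was at least 510-fold lower than in S0-Low with a floor of 3 counts per library, and the ratio of S0-Low to S3 from pooled counts was 1361 (95% exact interval 376 to 11238, counting error only). Csf3r fell in S3 against S0-Low by edgeR (adjusted p = 0.000225). The summed level of the 9 neutrophil markers was 25515, 15029 and 10889 in S0-Low. It was 367 to 5602 in S0-Medium, 28.8 to 57.8 in S1, 0 to 22.2 in S2 and 1.84 to 77.9 in S3. Of the 9 markers, 4 were at 0 in all S2 libraries and 5 in all S3 libraries. Within S0-Low, replicate 3 had the highest Csf3r and the lowest neutrophil marker sum. Other marker lists also had lower sums along the same course: the sum of 6 mast cell and basophil markers was 6062 to 10404 in S0-Low, 273 to 544 in S1 and 0 to 228 in S3 (5 of the 6 at 0 in all S3 libraries), and that of 7 stem and progenitor markers was 45391 to 58547 in S0-Low and 845 to 1347 in S3 (1 of the 7 at 0). The part of such cells in the falls of Kit, Flt3, Csf3r and Il3ra was not tested.

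Among the chains of the IL-3 and GM-CSF receptors, Il3ra (chr14:14345912-14355493) had 143, 204 and 680 normalized counts in S0-Low, then 78.8 to 120 in S0-Medium, 36.3 to 54.5 in S1, 26.4 to 92.5 in S2 and 2.42, 14.4 and 0 in S3. Every S3 library was below every library of the other populations. Il3ra fell by 5.84 on the log2 scale in S3 against S0-Low (SE 1.36, adjusted p = 0.00409 in edgeR). With replicates 1 and 2 alone, which leaves out the highest S0-Low library, the log2 fold change was -4.29 (adjusted p = 0.017). Csf2ra (chr19:61217191-61228461) had 204, 192 and 191 in S0-Low, then 181 to 258 in S0-Medium, 113 to 126 in S1, 32.3 to 118 in S2 and 128, 2.88 and 38.6 in S3. The S3 range contained the whole S2 range, and the log2 fold change of Csf2ra from S0-Low to S3, -1.80 ± 1.05, did not pass (adjusted p = 0.187 in edgeR). It passed when S3 replicate 1, the highest, was left out.

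The S3 library labelled replicate 2 held most of what was left of the progenitor receptors. It had 58 of 58 raw counts of Kit in S3, 16 of 17 of Flt3, 10 of 11 of Il3ra and 2 of 2 of Csf3r. The same library had the highest neutrophil marker sum of the 3 S3 libraries (77.9 against 9.69 and 1.84), and the lowest Csf2ra (2.88). It was also highest in the sums of macrophage (140 against 4.84 and 1.84), mast cell and basophil (228 against 2.42 and 0) and megakaryocyte markers (2804 against 586 and 1452). Stem and progenitor markers had their lowest sum there (845 against 1347 and 1241), and the remaining marker lists were not highest there. The sort of S0-Low to S3 cells left out cells stained for CD41, CD45R, CD3e, CD11b or Ly-6G/6C. These include markers of neutrophils (CD11b and Ly-6G/6C) and of megakaryocytes (CD41). Whether other cells in that library account for these counts was not tested.

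The shared beta chain Csf2rb, at chr15:78325800-78351001, had 4147, 3643 and 3026 normalized counts in S0-Low, then 2960, 2277 and 168 in S0-Medium, 208, 420 and 34.2 in S1, 119, 95.4 and 89.5 in S2, and 1131, 972 and 110 in S3. The mean was lowest in S2, the lowest single library was S1 replicate 3, and in S3 replicates 1 and 2 were above every S1 and S2 library while replicate 3 lay within the S2 range. In S3 against S2 the log2 fold change was 2.87 ± 0.97 (adjusted p = 0.0762 in edgeR), which did not pass. Of the 16 alternative settings 5 called Csf2rb there, among them DESeq2 (2.94, adjusted p = 0.0111). With replicates 1 and 2 alone, an alternative chosen after seeing the data, the log2 fold change in S3 against S2 was 3.29 (adjusted p = 0.000656 in edgeR). In S3 against S0-Low it was -2.29 ± 0.94 (adjusted p = 0.0681 in edgeR), and 8 of the 16 alternative settings called Csf2rb lower there, among them replicates 1 and 2 alone (-1.89, adjusted p = 0.00361). The neutrophil marker sum in S3 was 9.69, 77.9 and 1.84, against 1131, 972 and 110 for Csf2rb. Of the other marker lists, the sum of 6 endothelial markers was 4.06 to 68.2 in S2 and 254 to 402 in S3 (2 of the 6 at 0 in each), and that of 7 megakaryocyte markers was 527 to 738 in S2 and 586 to 2804 in S3 (3 and 2 of the 7 at 0). The sum of 8 macrophage markers was 83.9, 120 and 44.0 in S2 and 4.84, 140 and 1.84 in S3. Mast cell and basophil markers summed to 16.1 to 107 in S2 and 0 to 228 in S3. Stem and progenitor markers summed to 729 to 4468 in S2 and 845 to 1347 in S3. The part of cells with any of these markers in the values of Csf2rb and its neighbours was not tested.

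Its neighbour Csf2rb2, at chr15:78282507-78305721, also had its lowest mean in S2. Csf2rb2 had 641, 742 and 436 normalized counts in S0-Low, then 588, 320 and 95.7 in S0-Medium, 75.6, 72.6 and 6.41 in S1, 32.5, 33.2 and 2.94 in S2, and 1829, 2191 and 439 in S3. Every S3 library was above every S1 and S2 library. Csf2rb2 rose by 6.01 on the log2 scale in S3 against S2 (SE 1.15, adjusted p = 0.00534 in edgeR) and was higher in 3 of 3 same-numbered pairs. In a fit of only the 6 libraries compared the adjusted p was 0.0579 (log2 fold change 5.95), and in the other alternatives that could test Csf2rb2 it stayed under 0.05. The filter of at least 10 counts in every library could not test it, since S2 replicate 3 held 2 counts.

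The balance between the beta chains turned over in S3, a comparison chosen after the values were seen and given without a test. The ratio of Csf2rb2 to Csf2rb counts was 0.144 to 0.204 in S0-Low, then 0.141 to 0.571 in S0-Medium, 0.173 to 0.365 in S1, 0.0407 to 0.351 in S2 and 0.299 to 0.303 in Lin+, but 1.62, 2.25 and 3.96 in S3. Only the S3 libraries had more Csf2rb2 than Csf2rb. The coding transcripts of both genes share sequence: of the 5067 distinct stretches of 31 bases (the length by which Kallisto assigns reads by default) in Csf2rb, 1357 also occur in Csf2rb2, so some counts could be assigned to either gene. For the other 9 receptors at most 3.39% of such stretches (Csf3r) occurred in another gene. When both beta chains were summed to 1 row, the log2 fold change in S3 against S2 was 4.17 (adjusted p = 0.0128 in edgeR), and in S3 against S0-Low it was -0.92 (adjusted p = 0.398 in edgeR).

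Ncf4, which encodes the p40phox subunit of the phagocyte NADPH oxidase, is the next protein-coding gene beyond Csf2rb2 and lies within the same 107 kb (chr15:78244164-78262582). It was also named after its values were seen. Ncf4 had 539, 293 and 377 normalized counts in S0-Low, then 27.6 to 142 in S0-Medium, 21.1 to 190 in S1, 58.2 to 114 in S2, 1446, 1341 and 1208 in S3, and 2460 to 3106 in Lin+. All S3 libraries were above all other erythroid libraries. Its log2 fold change in S3 against S2 was 4.03 (adjusted p = 0.0125 in edgeR). Without S2 replicate 1 the log2 fold change was 3.83 (adjusted p = 0.0645) and without S2 replicate 2 it was 3.94 (adjusted p = 0.0617), so neither passed. Ncf4, Csf2rb2 and Csf2rb thus all had their lowest levels in S0-Medium, S1 or S2 and higher means in S3 than in S2.

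**Figure D2:**
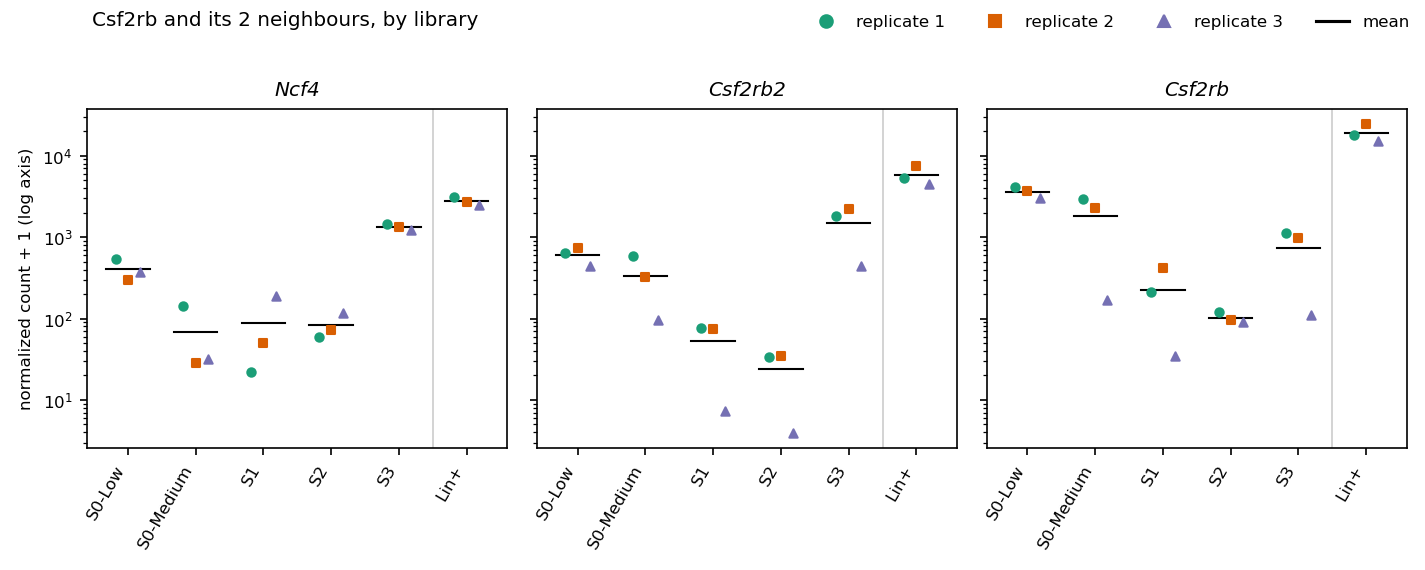
Normalized count + 1 (log axis) of Ncf4, Csf2rb2 and Csf2rb, which lie side by side on chromosome 15, in each library, with a point per replicate and a line at each mean. Csf2rb2 rises from 2.94 to 33.2 in S2 to 439 to 2191 in S3, where it passes Csf2rb, and all 3 genes are highest in Lin+.

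The insulin-like growth factor receptor Igf1r (chr7:67952257-68233668) and the insulin receptor Insr (chr8:3150922-3279649), which are paralogs, passed no test in the main analysis. Igf1r had 18204, 10037 and 14390 normalized counts in S0-Low, then 8591 to 28785 in S0-Medium, 7519 to 12196 in S1, 6906 to 16214 in S2, and 7743, 6124 and 25748 in S3. Its log2 fold change from S0-Low to S3 was -0.11 (95% interval -1.25 to 1.03, adjusted p = 0.893 in edgeR), an interval that allows a change in either direction. Insr had 4264, 2803 and 5995 in S0-Low, then 1969 to 3922 in S0-Medium, 2128 to 5335 in S1, 2350 to 9487 in S2, and 3691, 5202 and 11168 in S3. Its log2 fold change from S0-Low to S3 was 0.62 (95% interval -0.61 to 1.84, adjusted p = 0.416 in edgeR), and with library totals in place of TMM it was -0.30. Replicate 3 had the highest Insr level in all 5 erythroid populations.

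The ratio of Igf1r to Insr does not depend on library scaling. It was 4.27, 3.58 and 2.40 in S0-Low, then 3.86 to 7.51 in S0-Medium, 1.85 to 5.58 in S1, 1.71 to 3.23 in S2 and 2.10, 1.18 and 2.31 in S3. All S3 libraries lay below all S0-Low libraries, and the mean log2 ratio was lower by 0.9 in S3 (0.84 ± 0.52 against 1.73 ± 0.43, SD, n = 3), with an exact two-sided permutation p of 0.1, the smallest that 3 libraries against 3 allow. In S1 the mean log2 ratio was 1.73 ± 0.80, and the difference from S0-Low had an exact two-sided permutation p of 1.

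Il6st (chr13:112464070-112506860) had 836, 895 and 1108 normalized counts in S0-Low, then 1017, 707 and 399 in S0-Medium, 521, 569 and 181 in S1, 441, 556 and 88.1 in S2, and 1570, 342 and 38.6 in S3. The S3 libraries spanned a wider range than all the other erythroid libraries together. In S0-Medium, S1, S2 and S3 replicate 3 was the lowest. The log2 fold change from S0-Low to S3 was -0.55 (95% interval -2.51 to 1.42, adjusted p = 0.667 in edgeR), and with replicates 1 and 2 alone it was 0.14.

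Per length, the receptors could be ranked against each other within a population. Normalized counts were divided by the length of each gene's joined exons (1394 bases in Il3ra to 9669 in Insr), and each receptor's share of the sum over the 10 was taken in each library. The lengths came from a GENCODE annotation (4476 bases for Igf1r), whereas the transcript set that was counted is not known. The lengths that were counted may therefore differ, and the ranks and shares depend on them. In S0-Low, Igf1r (29.1% to 42.0%) and Kit (23.3% to 36.2%) ranked first and second in mean level, with Igf1r above Kit in 2 of 3 libraries, and Epor held 5.61% to 14.5%. In S1 Epor held 26.9% to 58.5%, in S2 46.2% to 62.3% and in S3 64.2% to 81.1%, where it ranked first and Igf1r (11.8% to 29.4%) second in each of the 3 libraries. Kit went from 9.67% to 22.5% in S1 to 1.02% to 13.1% in S2 and at most 0.124% in S3. In Lin+ Igf1r (28.7% to 36.6%) and Csf2rb (22.2% to 36.1%) led and Epor was last of the 10 in mean level, with 1.91% to 2.72%. Flt3 was almost level with it (means of 312 for Flt3 and 311 for Epor per kb) and lay below it in replicate 1 (1.43%). Of the 9 neighbouring pairs in each ranking by mean level, 4 kept their order in all 3 libraries in each population from S0-Low to S2, and 3 did so in S3 and in Lin+.

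**Figure D3:**
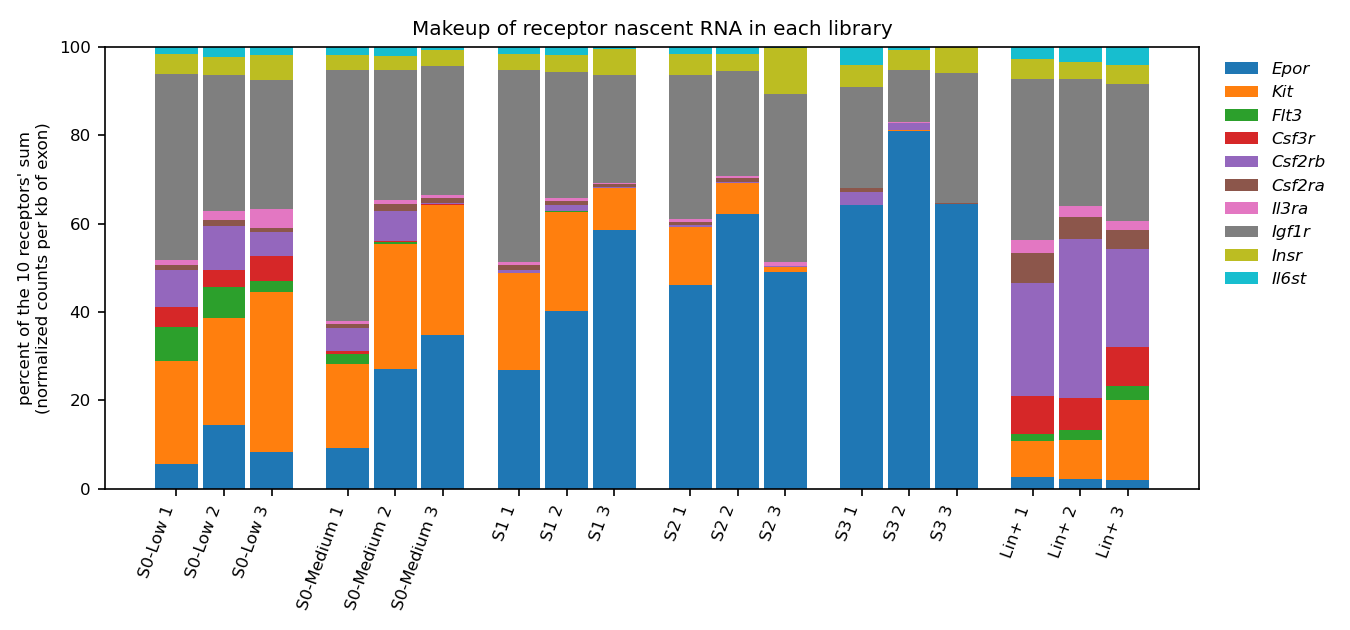
Share of each receptor in the sum of the 10, from normalized counts per kb of exon, as stacked bars for each library in percent. The share of Epor is 5.61% to 14.5% in the S0-Low bars and 64.2% to 81.1% in the S3 bars, while Csf2rb is 22.2% to 36.1% in the Lin+ bars.

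The ratio of Epor to Kit counts was 0.0756, 0.188 and 0.073 in S0-Low, then 0.151, 0.300 and 0.373 in S0-Medium, 0.384, 0.560 and 1.90 in S1, 1.11, 2.86 and 15.1 in S2, and 7319, 204 and 25055 in S3 with 0.5 added to each count. No S3 library overlapped with any other library. The mean log2 ratio was -3.30 ± 0.77 (SD, n = 3) in S0-Low and -0.43 ± 1.21 in S1, a difference of 2.87, and 11.7 ± 3.61 in S3, a difference of 15.0. Both differences had an exact two-sided permutation p of 0.1, the smallest possible, with no overlap between libraries. The size in S3 depends on the 0.5 added to each count, since Kit was at 0 in 2 libraries. With 5 added it was 12.8.

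**Figure D4:**
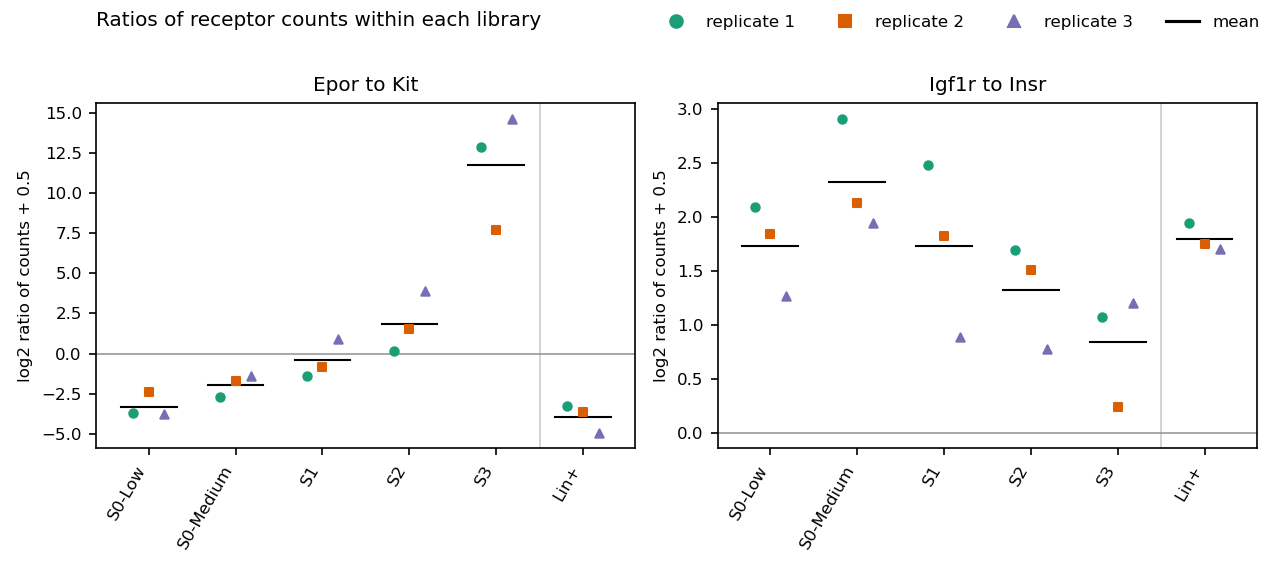
log2 ratio of Epor to Kit counts (left) and of Igf1r to Insr counts (right) in each library, with 0.5 added to each count, a point per replicate and a line at each mean. The mean Epor to Kit ratio is -3.30 for S0-Low and 11.7 for S3, and the Igf1r to Insr ratio is lower in all S3 libraries than in all S0-Low libraries.

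Lin+ was compared with S0-Low, the least mature population, over all 18 libraries and 17755 genes, of which 0.496% were called higher and 0.22% lower. None of the 10 receptors passed in edgeR, 2 were higher (Csf2ra and Csf2rb) and 1 lower (Epor) at an unadjusted p under 0.05, where 6.89% of all genes were higher and 2.96% lower. DESeq2 called 1 receptor higher (Csf2ra) and 0 lower, with 2.80% of all genes higher and 0.762% lower. Csf2rb had 17951, 24390 and 15163 normalized counts in Lin+, at a log2 fold change of 2.41 ± 0.87 (adjusted p = 0.285), and with replicates 1 and 2 alone it passed (2.44, adjusted p = 0.00782). Csf2ra had 1725, 1205 and 1032, at 2.75 ± 0.87 (adjusted p = 0.188). Csf3r (3956 to 5047, log2 fold change 1.31) and Il6st (2003 to 2810, 1.33) also lay above every S0-Low library. Kit (6661 to 14370) and Flt3 (1228 to 2664) overlapped with S0-Low, as did Il3ra (409 to 574), Igf1r (17171 to 22751) and Insr (5121 to 5910). The markers of neutrophils, macrophages (6262 to 9616), megakaryocytes (8673 to 24489) and mast cells and basophils (12120 to 25303) were all summed to higher levels in Lin+ than in any S0-Low library, and the part of each cell type was not tested.

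**Figure D5:**
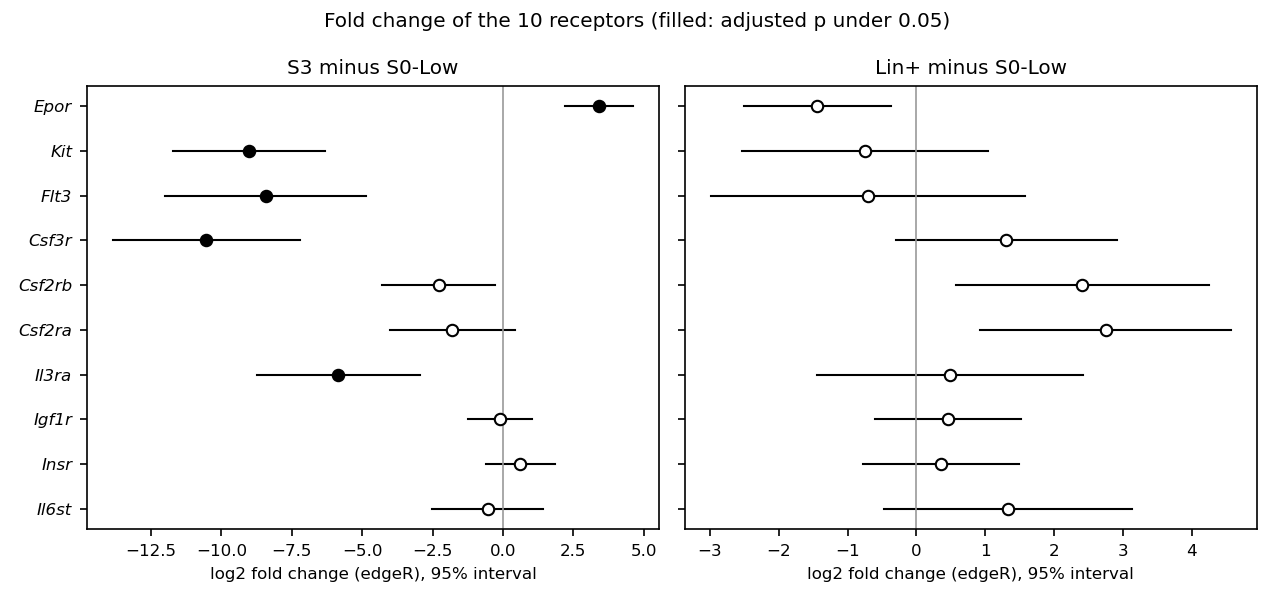
log2 fold change of each receptor with its 95% interval, S3 minus S0-Low (left) and Lin+ minus S0-Low (right), from edgeR, with filled points at an adjusted p under 0.05. In S3 Epor is higher (3.41) and Kit, Flt3, Csf3r and Il3ra are lower, and in Lin+ all 10 points are open.

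The other members of the pathway lists, chosen with earlier results known, were counted in the same fit, where 13.4% of all genes were higher and 22.4% lower in S3 than in S0-Low. These counts and fold changes are given for TMM scaling only. Of 29 other cytokine receptors 24 were tested, and 3 were higher and 11 lower in S3 than in S0-Low (median log2 fold change -5.17). Il10ra, Il21r and Il5ra were among the falls, each at 0 counts in all S3 libraries and at least 278-fold, 158-fold and 40.0-fold lower than in S0-Low. The 3 that rose, named after their values were seen, were the interferon receptor chains Ifnar1 (log2 fold change 2.13), Ifnar2 (1.90) and Ifngr2 (1.60). Of 29 other growth factor receptors 24 were tested, with 0 higher and 14 lower, among them Csf1r, Pdgfrb, Tie1 and Acvr2b, all at 0 counts in S3 and at least 210-fold, 164-fold, 101-fold and 92.4-fold lower. In Lin+ against S0-Low, where 0.496% of all genes were higher and 0.22% lower, 1 of 25 other cytokine receptors tested was called, Ifngr2 (log2 fold change 1.97 ± 0.34, adjusted p = 0.00811 in edgeR).

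Of the 26 adaptors, kinases and inhibitors next to these receptors, 7 were higher and 12 lower in S3 than in S0-Low, against the same 13.4% and 22.4% of all genes. Jak2, the kinase bound to Epor, was among the 7 (log2 fold change 2.04), with Cish (3.73) and Socs3 (6.54), inhibitors induced by cytokine signals, and the insulin receptor substrate Irs2 (2.78), all named after their values were seen. Among the 12 were Ptprc, the phosphatase CD45 (0 counts in S3, at least 732-fold lower), the transcription factor Stat5a (-7.47) and Ptpn6, the phosphatase SHP-1 (-7.39). Socs1 (-8.27) was also called lower, although its libraries overlapped between the populations. Of the 17 ligands of the 10 receptors 8 were tested and 0 passed in S3 against S0-Low, 9 did not pass the filter on low counts, and Igf2, Il3 and Ins1 are listed at 0 in all 18 libraries. Epo, the ligand of Epor, had mean normalized counts of 98.8 in Lin+ to 146 in S0-Medium, and its log2 fold change from S0-Low to S3 was 0.32 (adjusted p = 0.797 in edgeR).

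For the receptors, the 3 genes with the most similar pattern over the 18 libraries were found by Pearson r of log2(CPM + 0.5) among 12087 genes. The libraries share their populations, so r here is a description. Epor was most like Tspo2 (r = 0.98), Alad (0.977) and Glrx5 (0.977), of which Alad encodes an enzyme of haem synthesis and Glrx5 a protein of iron-sulfur cluster assembly. Kit was most like Ppif (0.986), Cnn3 and Klhdc5, Flt3 like Mn1 (0.982), Lsp1 and Cacnb2, and Csf3r like Il21r (0.995), Scin and Mndal. Csf2rb was most like Gm8995 (0.983), Ppfibp2 and Lcp1, Csf2ra like Mgrn1 (0.929), Prkcd and Anxa6, and Il3ra like Arpc4 (0.956), Acap2 and Sh2b3, the last of which encodes the inhibitory adaptor LNK. Insr was most like Kdm3b (0.947), Ctdsp2 and Klhl24. The closest pattern to Igf1r was that of 4933407C03Rik (0.9), before Wdfy3 and Fam125b, the weakest likeness among the 10 receptors.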

How the data were processed

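Nascent RNA from 18 libraries (6 populations, 3 replicates each) was quantified with Kallisto 0.43.0 on GRCm38, per the submitters' processing notes. The transcript set is not given in the sources used here. The authors deposited a table of counts per gene for 54232 genes, with no molecular identifiers, so intervals and floors cover counting error only. Groups came from the sample labels. The members and gene lists were chosen with earlier results of these data known.

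Counts were tested with edgeR 4.0.16 (R 4.3.3; TMM factors, filterByExpr, quasi-likelihood test, Benjamini-Hochberg adjusted p under 0.05), with the 15 erythroid libraries in 1 fit and all 18 for Lin+. The scripts were tested on simulated data. SE is the log2 fold change over the square root of F. Ratios were tested with exact two-sided permutation tests. DESeq2 1.42.0, RLE factors, library totals, other filters, other sets of libraries and omission of each replicate were alternatives. Named genes of the other lists were called, averaged 100 normalized counts or more in the higher population, and were the 4 with the largest change per list, and likeness used genes with such a mean. Other genes named are said to be chosen after their values were seen. Some genes that this rule names are not reported here.

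Replicate numbers come from the sample titles, which do not say what a shared number stands for. The study describes its replicates as biological, without saying whether they came from separate embryos or litters, and p-values measure the spread between these samples. Deviations from population means correlated in every same-numbered pair above 0.1 (0.17 to 0.55) in all comparisons except S3 against S0-Low (0.08 to 0.13), and those pairs were treated as paired when the replicate block was read. Totals of 9452476 to 40567976 counts put 3 counts at 0.317 to 0.074 CPM.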

Additional observations from a re-analysis of the deposited data

How the results depend on the processing

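The falls of Kit, Flt3, Il3ra and Csf3r in S3 against S0-Low were called in 15 of 16 alternatives each, the exception being a filter that could not test them, and the rise of Epor in 16 of 16, with log2 fold changes of 2.50 to 3.69. The sizes of the falls depended on S3 replicate 2, without which Kit was at -16.88, and that of Il3ra also on replicate 3 (-4.29 with replicates 1 and 2 alone). The number of the 10 receptors called moved as follows, with the percentage of all genes tested that the same setting called in either direction in parentheses; the cause was not tested except where fewer genes were testable. With no filter it was 3 in S1 against S0-Medium (1.13%), 3 in S3 against S2 (8.81%) and 1 in Lin+ against S0-Low (1.30%). With DESeq2 it was 1 in S0-Medium against S0-Low (0.299%), 3 in S1 against S0-Medium (2.78%), 3 in S3 against S2 (21.7%) and 1 in Lin+ (3.56%). With all 18 libraries it was 2 in S1 against S0-Medium (0.704%) and 2 in S3 against S2 (11.4%), and with only the 6 libraries compared 0 in S3 against S2 (0.823%) and 3 in Lin+ (573 of 15934 genes). With at least 10 counts in every library, which left 5 receptors, it was 2 for variation (27.2%), 0 in S3 against S2 (1103 of 8152 genes) and 2 in S3 against S0-Low (38.1%). With replicates 1 and 2 alone, chosen after seeing the data, it was 2 in S3 against S2 (18.9%), 1 in Lin+ (1.09%), 6 in S3 against S0-Low (37.7%) and 5 for variation (27.7%). In S3 against S0-Low it was also 6, with Csf2rb added, with library totals (44.6%), no filter (21.6%), all 18 libraries (37.8%), the 6 libraries compared (28.6%) and DESeq2 (44.5%). Leaving out 1 replicate gave 1 to 2 in S3 against S2 (3.94% to 13.4%), 5 to 6 in S3 against S0-Low (24.6% to 32.7%) and 5 to 6 for variation (18.7% to 24.2%).

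With the replicate block 2 receptors were called in S3 against S2 (Kit and Epor, 18.6% of all genes) and, where the numbers did not pair the samples, 6 in S3 against S0-Low (42.4% of all genes), adding Csf2rb (log2 fold change -2.94, adjusted p = 0.0072 in edgeR). The block changed no other count of receptors. Among fold changes that did not pass, library totals turned Igf1r (-0.18) and Insr (-0.017) in S3 against S2 and Insr in S3 against S0-Low (-0.30). Replicates 1 and 2 alone turned Igf1r in S3 against S2 (-0.064) and Il6st in S3 against S0-Low (0.14). The same setting turned Igf1r (0.052 to -0.44) and Il3ra (0.39 to -0.24) in S2 against S1, and Csf2ra in S0-Medium against S0-Low (0.090 to -0.10). The block (-0.016) and DESeq2 (-0.029) also turned Igf1r in S2 against S1. Leaving out 1 replicate also turned the sign of Igf1r in S3 against S0-Low (-1.04 to 0.24), Csf2ra in S3 against S2 (-1.71 to 0.42), Il6st in S3 against S2 (-0.94 to 1.38), Flt3 in S3 against S2 (-0.46 to 3.44), Igf1r in S3 against S2 (-0.57 to 0.86) and Insr in S3 against S2 (-0.11 to 1.48). The Igf1r to Insr log2 ratio in S1 minus S0-Low went from -0.38 to 0.42. Of 447 alternatives for single fold changes, 407 kept direction and side of the threshold. Depth limits receptors near 3 counts, such as Csf3r from S1 on.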

Other observations

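Some other receptor chains with more nascent RNA in S3 lay within 191 kb of each other. Of the 4 protein-coding genes at chr16:91372783-91564007 (GRCm38.p6), 3 were called higher in S3 than in S2, where 3.26% of all genes tested were higher, and encode chains of the interferon receptors. They were singled out after their values were seen and are given for TMM scaling only. Ifnar1 had 1397, 1646 and 2815 normalized counts in S2 and 9240, 8294 and 14369 in S3, a log2 fold change of 2.45 (adjusted p = 0.00207 in edgeR). Ifnar2 had 1183, 1151 and 2675 in S2 and 5551, 4641 and 6271 in S3, a log2 fold change of 1.72 (adjusted p = 0.013 in edgeR). Ifngr2 had 728, 1085 and 820 in S2 and 2081, 4097 and 4443 in S3, a log2 fold change of 2.02 (adjusted p = 0.00463 in edgeR). For all 3 genes every S3 library was above every S2 library. Il10rb, which lies between Ifnar2 and Ifnar1 and encodes a chain of the IL-10 receptor, had 448, 963 and 1118 in S2 and 233, 1339 and 1917 in S3 and did not pass (log2 fold change 0.47, adjusted p = 0.655 in edgeR). Ifngr1, the partner chain of Ifngr2, lies elsewhere and fell by 5.60 on the log2 scale in S3 against S0-Low (adjusted p = 0.00114 in edgeR).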
